A study of Nicotiana benthamiana with 6 samples.

Results

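The patellin family was followed in *Nicotiana benthamiana* leaves as 8 unigenes, the non-redundant transcripts of a de novo assembly, out of 167935 in all. A unigene was taken as a member where its UniProt match is named a patellin and its best protein match comes from *Nicotiana* or *Solanum*. Names such as c94450_g1_i2 are the assembly's own identifiers. The starting member, c94450_g1_i2, a match to Patellin-4, was chosen by its fall in the same comparison that is described here, so its values are given without a test. The other 7 entered by annotation alone. Of the 8, 4 matched Patellin-3, 2 Patellin-4, 1 Patellin-5 and 1 Patellin-6, each from *Arabidopsis thaliana*, and 0 matched Patellin-1 or Patellin-2.

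The tested leaves transiently overexpressed *MaWRKY45*, a WRKY transcription factor of banana, from the CaMV35S promoter of pCAMBIA2200. The mock leaves received the empty pCAMBIA2200 vector. All plants were wild type and 5 weeks old, and all leaves were infiltrated with *Agrobacterium tumefaciens* LBA4404, so the mock leaves carry the bacterium and the vector too. Leaves were harvested at day 3, and there were 3 libraries per group, each made of RNA pooled from 3 plants.

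Patellins are plant proteins with a Sec14 (CRAL-TRIO) domain, which holds or transfers a lipid, followed by a GOLD domain. In *Arabidopsis* they bind phosphoinositides, the signalling lipids of membranes. Patellin-1 of *Arabidopsis* is known from the cell plate, the membrane that divides a plant cell, and other members act in responses to auxin. Patellin-3 and Patellin-6 of *Arabidopsis* bind the movement protein of a plant virus.

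Total counts ranged from 12590186 to 13465854 in overexpression libraries and from 12031310 to 14285138 in mock libraries. Of the leaf mesophyll markers (RuBisCO small chain, RuBisCO activase, chlorophyll a-b binding proteins), 40 of 40 unigenes had a count, and their summed level was 6175 to 10890 in overexpression libraries and 9434 to 29920 in mock libraries, highest in mock replicate 2. These sums are in TMM CPM, counts scaled to a common library size by TMM (CPM), as are levels between libraries unless another unit is named. Of the 27 mesophyll unigenes tested, 23 were lower and 4 higher in overexpression libraries. Their median log2 fold change was −1.21, beside −0.01 over all unigenes tested. The unigene best matched to banana WRKY proteins, c147189_g1_i1, had 3133, 4527 and 3615 counts in overexpression libraries, against 1617, 781 and 1455 counts in mock libraries. It was thus higher in each overexpression library but not at 0 in mock, and its UniProt match is a viral protein. Unigenes matched to yeast summed to 32.9 to 110 TMM CPM in overexpression libraries and to 741 to 1083 TMM CPM in mock libraries.

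By the deposited annotation 7 of the 8 members carried a CRAL-TRIO domain, and the exception, c85654_g1_i1, was with 701 bases the shortest. All 8 carried the terms cell cycle, cell division, lipid binding and transport. Both Patellin-4 unigenes, Patellin-5 and Patellin-6 also carried the term for protein localization in polar auxin transport, and the 4 Patellin-3 unigenes did not. Unigenes with the same UniProt name carried the same terms, so the terms follow the name by which members were chosen. The unigenes c93943_g6_i1 and c93943_g5_i1 belong to the same assembly component. The best nucleotide match was shared by c93943_g6_i1 and c85654_g1_i1, and another was shared by c93943_g5_i1 and c88233_g1_i1, so reads of near-identical copies may have been divided among them. A further 8 unigenes named a patellin only in other annotation columns. Of these, 2 matched a metal-associated isoprenylated protein by UniProt and the other 6 held 0 to 34 counts each over all libraries.

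Levels were compared between members in FPKM, which takes account of transcript length. In overexpression libraries c93943_g6_i1 (Patellin-3) was the most abundant at 191 ± 23.5 FPKM, followed by c85654_g1_i1 (Patellin-3) at 87.4 ± 21.5, c88233_g1_i1 (Patellin-5) at 32.3 ± 9.62, c98022_g2_i1 (Patellin-3) at 27.8 ± 1.84 and c93943_g5_i1 (Patellin-3) at 16.1 ± 2.48 FPKM (SD, n = 3). The order ended with c91073_g1_i1 (Patellin-6) at 11.0 ± 4.97, c100890_g4_i1 (Patellin-4) at 10.3 ± 0.473 and c94450_g1_i2 (Patellin-4) at 0.337 ± 0.257 FPKM. The libraries of neighbours in this order overlapped for Patellin-5 with c98022_g2_i1, for c93943_g5_i1 with Patellin-6 and for Patellin-6 with c100890_g4_i1. The other neighbours did not overlap.

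In mock libraries the order began the same way, with c93943_g6_i1 at 122 ± 3.55, c85654_g1_i1 at 75.6 ± 26.1 and c88233_g1_i1 at 28.6 ± 5.19 FPKM (SD, n = 3). Below these stood c93943_g5_i1 at 19.4 ± 6.57, c98022_g2_i1 at 17.0 ± 7.88, c91073_g1_i1 at 14.4 ± 5.30, c100890_g4_i1 at 11.1 ± 2.44 and c94450_g1_i2 at 8.58 ± 5.29 FPKM. From Patellin-5 downward each member overlapped with the next. The first and second places went to the same pair of Patellin-3 unigenes in all 6 libraries.

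**Figure D1:**
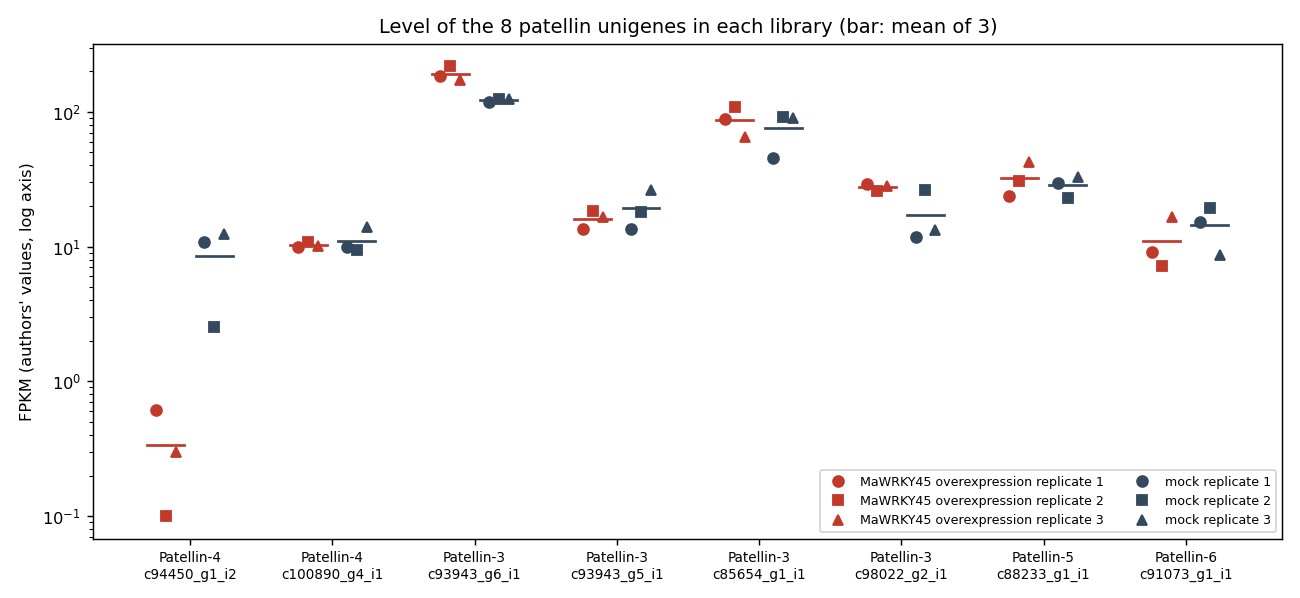
FPKM of the 8 patellin unigenes on a log axis in the 3 *MaWRKY45* overexpression libraries (red, left of each pair) and the 3 mock libraries (dark, right), with symbols for replicates and a bar for the mean of 3. The Patellin-4 unigene c94450_g1_i2 lies between 0.10 and 0.61 FPKM in overexpression libraries and between 2.54 and 12.38 FPKM in mock libraries, while the groups of the other members lie close to each other.

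The Patellin-4 unigene c94450_g1_i2 is 1739 bases long and matches a tobacco patellin-4-like transcript. Its counts were 12, 2 and 6 in the overexpression libraries (replicates 1, 2 and 3), against 239, 56 and 229 in the mock libraries (replicates 1, 2 and 3). On the TMM CPM scale these were 0.951, 0.147 and 0.443 in overexpression libraries, against 17.5, 4.17 and 20.6 in mock libraries. The highest overexpression library thus lay below the lowest mock library, and mock replicate 2 lay well below the other mock libraries. Exact Poisson intervals (95%) were set on the unscaled counts and cover counting error only. The 56 counts of mock replicate 2 (42.3 to 72.7) stood apart from the 229 counts of mock replicate 3 (200.3 to 260.7). The interval of the 12 counts of overexpression replicate 1 was 6.20 to 20.96. As the unigene was chosen by its fall, the gap between the groups is no test.

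The level of c94450_g1_i2 averaged 0.513 ± 0.407 TMM CPM in overexpression libraries and 14.1 ± 8.71 TMM CPM in mock libraries (SD, n = 3 each). The fitted log2 fold change was −4.77 (SE 0.69, 95% interval −6.30 to −3.24). Leaving out 1 library at a time gave −5.54 to −4.32. By the fitted change, c94450_g1_i2 held rank 141 among the 992 unigenes called lower. That list includes unigenes matched to yeast. Of the 128 yeast unigenes tested, 86.7% were called lower, and the median log2 fold change of the 128 was −7.55. The rank is thus not one among plant unigenes alone. As these are bulk leaf samples, fewer cells holding a transcript and less of it per cell cannot be told apart. Guard cell markers (SLAC1, KAT1, MYB60; 6 unigenes, all detected) summed to 89.5 to 99.6 TMM CPM in overexpression libraries and 124 to 131 TMM CPM in mock libraries. Of the 5 tested, 2 were higher and 3 lower in overexpression libraries (log2 fold change −0.90 to 0.90). Summed dividing cell markers were 162 to 200 in overexpression libraries and 133 to 184 in mock libraries, with a Cyclin-B2-4 and a NACK1 unigene at 0 of 42. Of the 13 tested, 10 were higher and 3 lower (log2 fold change −1.71 to 2.86). Vascular markers (15 unigenes, all detected) were 229 to 303 in overexpression libraries and 248 to 281 in mock libraries. Of the 12 vascular unigenes tested, 6 were higher and 6 lower in overexpression libraries (log2 fold change −1.23 to 2.07). The part of these cell types, and of the yeast and mesophyll sums, in the patellin values was not tested.

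The second Patellin-4 unigene, c100890_g4_i1, is 1826 bases long and matches a different tomato gene. It had 204, 237 and 211 counts in overexpression libraries, against 232, 218 and 271 counts in mock libraries. The groups overlapped, with mock replicate 3 the highest. Its log2 fold change was −0.23 (SE 0.21, 95% interval −0.69 to 0.24, edgeR's quasi-likelihood test with Benjamini-Hochberg adjustment over 37201 unigenes, adjusted p = 0.637).

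The make-up of the Patellin-4 pair differed between the groups. In FPKM, c94450_g1_i2 over c100890_g4_i1 gave ratios of 0.0617, 0.00926 and 0.0296 in overexpression libraries, against 1.09, 0.271 and 0.893 in mock libraries. Mock leaves thus held the pair at similar levels in replicates 1 and 3, and at unequal levels in replicate 2. Of the FPKM of the pair, c94450_g1_i2 made up 5.81, 0.917 and 2.88% in overexpression libraries, against 52.1, 21.3 and 47.2% in mock libraries. The pair's sum was 10.5, 10.9 and 10.4 FPKM in overexpression libraries, against 20.8, 11.9 and 26.2 FPKM in mock libraries. In mock replicate 2 the sum came close to that of the overexpression libraries.

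By the thresholds of the study (adjusted p under 0.05, change of 2-fold or more), 4.59% of the 37201 unigenes tested were called in either direction. All 8 patellins passed the filter on low counts, and 1 of 8 was called, the unigene chosen by this change. Among the other 7, edgeR, DESeq2 and limma-voom each called 0, and 1 (c93943_g6_i1) had an unadjusted p under 0.05 in edgeR. Of these 7, 4 had a positive and 3 a negative log2 fold change, with a median of 0.05 beside −0.01 over all unigenes tested. Groups did not overlap for 2 of the 8, the Patellin-4 unigene and c93943_g6_i1, while 22.9% of all unigenes tested did not overlap.

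**Figure D2:**
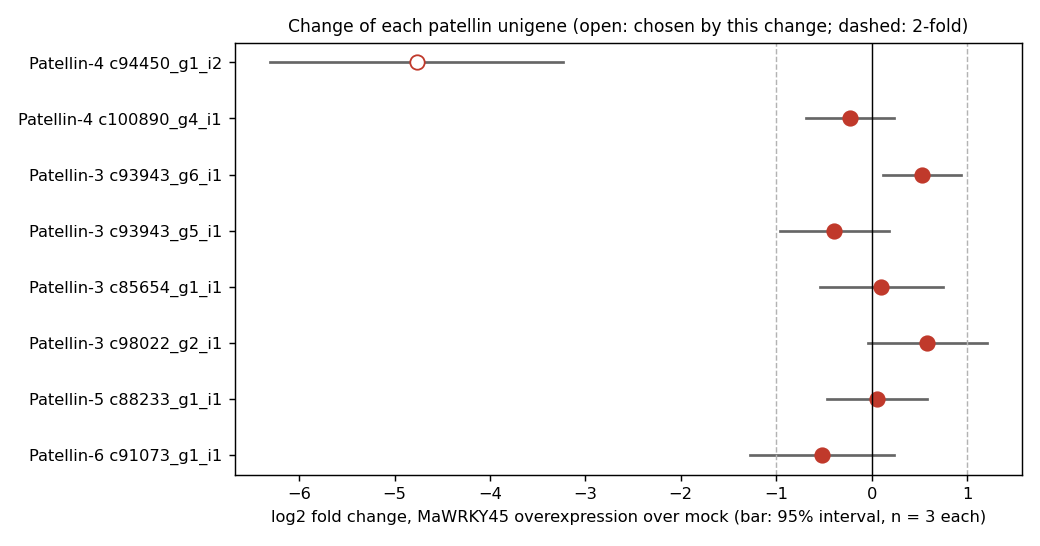
Log2 fold change of each patellin unigene, *MaWRKY45* overexpression over mock, with 95% intervals from the fit across all unigenes (n = 3 each). The open symbol, c94450_g1_i2 at −4.77, was chosen by this change, so its interval is no test of it. The filled symbols lie between −0.52 and 0.58, inside the dashed lines at a 2-fold change.

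Patellin-3 supplied the most abundant members. The leading one, c93943_g6_i1, had 3928, 4895 and 3665 counts in overexpression libraries, against 2829, 2981 and 2484 counts in mock libraries. On the TMM CPM scale these were 311, 359 and 270 in overexpression libraries, against 207, 222 and 223 in mock libraries. All overexpression libraries lay above all mock libraries, and the mock libraries lay close together. The log2 fold change was 0.53 (SE 0.18, 95% interval 0.12 to 0.94) with an unadjusted p of 0.0159 and an adjusted p of 0.141 in edgeR, which did not pass the threshold. Over 14 alternative settings, all with a positive change, the adjusted p ranged from 0.0578 to 0.452.

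Its component partner c93943_g5_i1 had 238, 345 and 300 counts in overexpression libraries, against 272, 364 and 446 counts in mock libraries. The groups overlapped, and mock replicate 3 was the highest (log2 fold change −0.39, SE 0.26, 95% interval −0.96 to 0.18, edgeR adjusted p = 0.476). In FPKM, c93943_g6_i1 over c93943_g5_i1 gave ratios of 13.9, 11.9 and 10.3 in overexpression libraries, against 8.73, 6.87 and 4.67 in mock libraries. The ratio was higher in each overexpression library than in any mock library. This ratio was chosen after its values were seen, and reads divided between both unigenes would enter it.

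The short Patellin-3 unigene c85654_g1_i1 had 574, 735 and 425 counts in overexpression libraries, against 332, 653 and 545 counts in mock libraries. Mock replicate 1 was the lowest of all and the groups overlapped. The log2 fold change of 0.10 (SE 0.29, 95% interval −0.54 to 0.74, edgeR adjusted p = 0.9) was negative once either overexpression replicate 2 (−0.07) or mock replicate 1 (−0.18) was left out.

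The longest member, the Patellin-3 unigene c98022_g2_i1 of 2559 bases, had 874, 818 and 854 counts in overexpression libraries, against 397, 880 and 375 counts in mock libraries. Mock replicate 2 lay at the level of the overexpression libraries, and mock replicates 1 and 3 at less than that. The level averaged 64.0 ± 4.76 TMM CPM in overexpression libraries and 42.7 ± 19.9 TMM CPM in mock libraries (SD, n = 3 each), and the log2 fold change was 0.58 (SE 0.28, 95% interval −0.04 to 1.21, edgeR adjusted p = 0.302). Without mock replicate 2 the log2 fold change was 1.03 (SE 0.18, edgeR adjusted p = 0.00622) and the unigene was called. Without mock replicate 1 the change was 0.36, with an edgeR adjusted p of 0.575.

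Mock replicate 2 thus stood apart in opposite directions. It was the lowest mock library for the Patellin-4 unigene c94450_g1_i2 and the highest for the Patellin-3 unigene c98022_g2_i1.

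**Figure D3:**
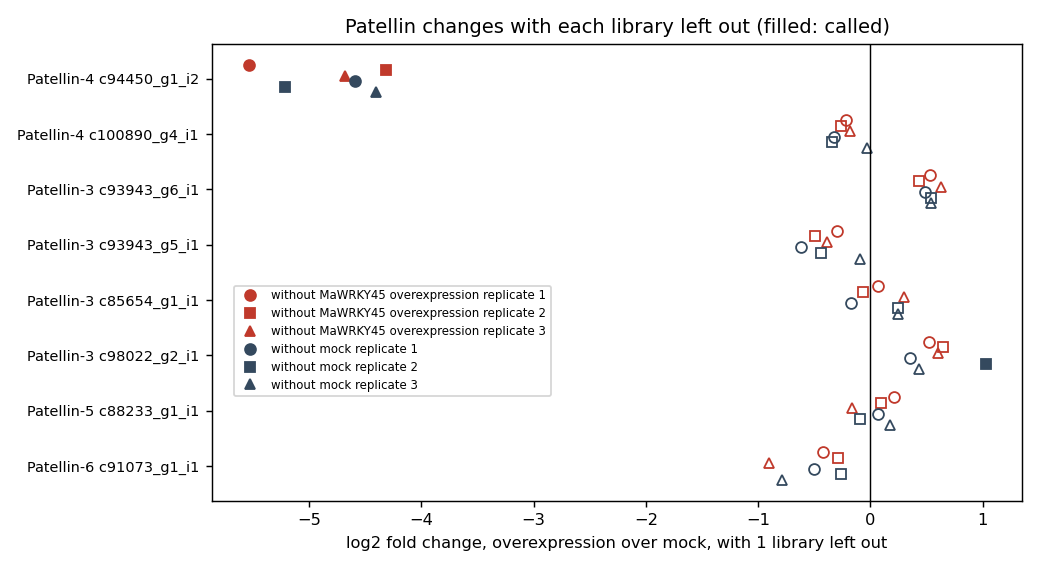
Log2 fold change of each patellin unigene, overexpression over mock, with 1 of the 6 libraries left out in turn (red symbols, an overexpression library left out; dark symbols, a mock library left out; filled symbols, called). The Patellin-4 unigene c94450_g1_i2 stays between −5.54 and −4.32, and c98022_g2_i1 moves to 1.03 and is called once mock replicate 2 is left out.

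The unigene c88233_g1_i1 is Patellin-5 by its UniProt match only, since its best *Nicotiana* protein and transcript matches are named patellin-3-like. It carried the annotation for auxin transport and had 220, 299 and 401 counts in overexpression libraries, against 313, 238 and 288 counts in mock libraries. Overexpression replicates 1 and 3 were the lowest and the highest of the 6 libraries. The log2 fold change was 0.05 (SE 0.24, 95% interval −0.47 to 0.58, edgeR adjusted p = 0.938), and it turned to −0.16 without overexpression replicate 3 and to −0.09 without mock replicate 2.

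The Patellin-6 unigene c91073_g1_i1 had 162, 135 and 297 counts in overexpression libraries, against 307, 383 and 146 counts in mock libraries. The third replicate of each group stood apart from the rest of its group, high among overexpression libraries and low among mock libraries. The log2 fold change was −0.52 (SE 0.34, 95% interval −1.28 to 0.23, edgeR adjusted p = 0.471), and it ranged from −0.90 to −0.26 with single libraries left out. The interval leaves room for a fall of more than 2-fold.

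The summed family level was 492, 547 and 454 TMM CPM in overexpression libraries, against 359, 430 and 430 TMM CPM in mock libraries. The groups did not overlap, and their means stood at a ratio of 1.23, overexpression over mock. In FPKM the ratio was 1.27. This total mostly follows the Patellin-3 unigenes. The 4 of them summed to 445, 497 and 387 TMM CPM in overexpression libraries, against 280, 363 and 346 TMM CPM in mock libraries. Without c94450_g1_i2 the family ratio was 1.27 in TMM CPM, since this unigene made up 0.169, 0.0240 and 0.0855% of the family's FPKM in overexpression libraries, against 4.25, 0.810 and 3.85% in mock libraries. The share of c93943_g6_i1 was 51.5, 52.0 and 48.8% in overexpression libraries, against 46.4, 39.8 and 38.4% in mock libraries. The sums were not tested.

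**Figure D4:**
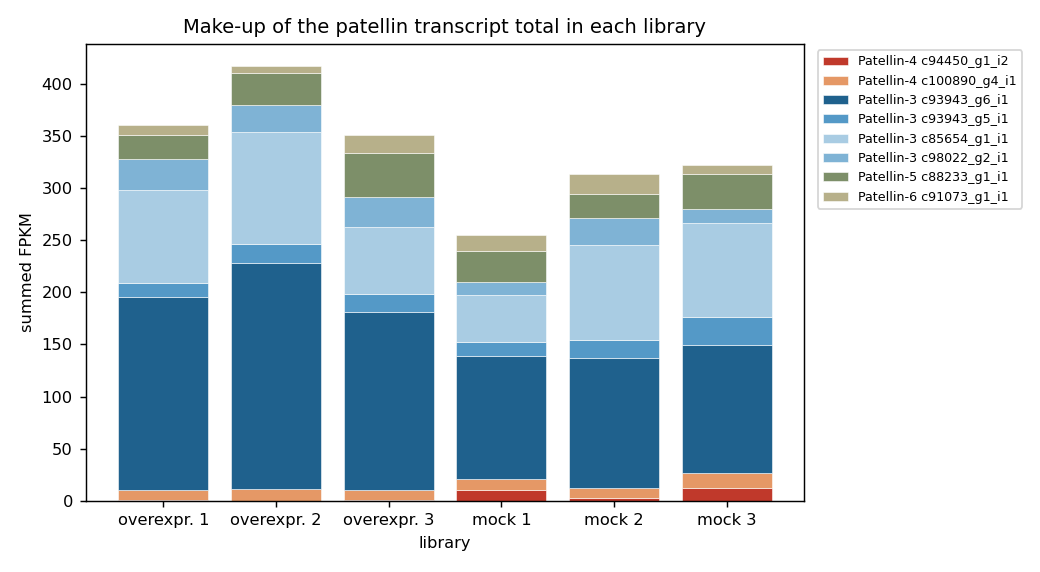
FPKM of the 8 patellin unigenes stacked for each of the 3 overexpression libraries (left) and 3 mock libraries (right). The Patellin-3 unigenes (blue) make up most of each bar, and c94450_g1_i2 (red) is visible at the base of the mock bars but not of the overexpression bars.

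The 5 unigenes whose level over the 6 libraries was most like that of c94450_g1_i2 were ranked by Pearson's r of log2(TMM CPM + 1) among the 16791 unigenes that had a *Nicotiana* or *Solanum* match, a UniProt name and an average level not under 1 TMM CPM. They matched WRKY53 (c94481_g1_i5, r = 0.995), a senescence-related transcription factor in *Arabidopsis*, the lipase ABHD6 (c89889_g1_i2, r = 0.993), the ultraviolet-B photoreceptor UVR8 (c76273_g1_i1, r = 0.992), Synaptotagmin-1 (c79513_g1_i2, r = 0.991), a membrane contact site protein in *Arabidopsis*, and the phosphoglycerate mutase-like protein AT74 (c98593_g4_i2, r = 0.991). The libraries fall into both groups, so each r mostly reflects the gap between them, and it is a description without a test. The size of a change does not enter r. The log2 fold changes of the ABHD6, UVR8 and AT74 unigenes were −1.05, −1.08 and −0.73, beside −4.77 for c94450_g1_i2. The WRKY53 unigene had 4.67, 3.29 and 4.28 TMM CPM in overexpression libraries, against 35.6, 13.8 and 33.4 TMM CPM in mock libraries. The Synaptotagmin-1 unigene had 1.66, 1.25 and 1.03 TMM CPM in overexpression libraries, against 25.5, 8.41 and 25.2 TMM CPM in mock libraries. Mock replicate 2 was the lowest mock library for each of the 5, which the choice by likeness to c94450_g1_i2 favours.

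Other proteins with a Sec14 domain were represented by 47 unigenes, of which 31 were tested. Of these 31, 0 were called higher and 2 lower, which is 6.45% beside 4.59% of all unigenes tested. The median log2 fold change was −0.36 beside −0.01 over all unigenes, and 22 of 31 were negative. The lipid transfer protein named Phosphatidylinositol transfer protein 3 (c94527_g1_i4) had 7.92, 7.76 and 11.4 TMM CPM in overexpression libraries, against 41.9, 21.7 and 48.5 TMM CPM in mock libraries. It fell without overlap between groups (log2 fold change −2.05, SE 0.31, edgeR adjusted p = 0.0057) and was called with any single library left out. The unigene matched to Motile sperm domain-containing protein 2 (c91752_g4_i4) had 18.3, 15.8 and 21.02 TMM CPM in overexpression libraries, against 43.1, 34.3 and 46.8 TMM CPM in mock libraries. It fell by 1.17 on the log2 scale (SE 0.20, edgeR adjusted p = 0.00898), and without overexpression replicate 1 or 2 this call was lost and the list held 1 call. Of the p24 proteins, which share the GOLD domain and sort cargo between endoplasmic reticulum and Golgi, 12 of 17 were tested. Their median was 0.03, edgeR, DESeq2 and limma-voom called 0, and 1 had an unadjusted p under 0.05.

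Enzymes of phosphoinositide metabolism make and remove the lipids that patellins bind. Of 75 kinase unigenes 41 were tested, with 0 called higher, 2 lower and a median log2 fold change of −0.17. The 2 calls are 4.88% of the kinases tested, near the 4.59% of all unigenes tested, and groups did not overlap for 9 of the 41, beside 22.9% of all unigenes. Phosphatidylinositol 4-kinase gamma 4 (c99164_g1_i2) had 5.78, 4.47 and 11.9 TMM CPM in overexpression libraries, against 34.3, 18.5 and 29.6 TMM CPM in mock libraries (log2 fold change −1.89, SE 0.37, edgeR adjusted p = 0.0167). FAB1B (c101103_g1_i3), which makes a doubly phosphorylated phosphoinositide of endosomes, had 24.5, 20.9 and 35.6 TMM CPM in overexpression libraries, against 59.1, 76.4 and 45.7 TMM CPM in mock libraries (log2 fold change −1.16, SE 0.25, edgeR adjusted p = 0.0272). Both unigenes fell without overlap between groups. The other tested unigenes named FAB1B had log2 fold changes of −0.19 to 0.20. Those named Phosphatidylinositol 4-kinase gamma 4 had −0.64 to 0.21. Each of these others overlapped between groups and was not called. Without overexpression replicate 1, overexpression replicate 2 or mock replicate 1 the kinases held 0 calls, and without mock replicate 2 they held 1.

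Of 69 unigenes for phosphoinositide phosphatases and phospholipases C, 31 were tested, with 1 called higher, 2 lower and a median log2 fold change of 0.07. The 3 calls are 9.68% of those tested, beside 4.59% of all unigenes tested, and groups did not overlap for 29.0% of the list, beside 22.9% of all unigenes. Phosphoinositide phospholipase C 2 (c94496_g2_i3), which cleaves phosphoinositides, had 44.2, 39.3 and 37.6 TMM CPM in overexpression libraries, against 86.5, 109.8 and 63.6 TMM CPM in mock libraries (log2 fold change −1.10, SE 0.21, edgeR adjusted p = 0.0175). Unigenes of this name disagreed. From the same component, c94496_g3_i6 was higher without overlap (log2 fold change 0.92, edgeR adjusted p = 0.0491), but by less than 2-fold and so not called. Groups overlapped for c92425_g7_i3 (0.40) and c98247_g1_i3 (−1.30), also not called. Inositol polyphosphate 5-phosphatase 3 (c98586_g3_i1) had 71.9, 70.7 and 65.8 TMM CPM in overexpression libraries, against 173.9, 153.4 and 118.9 TMM CPM in mock libraries (log2 fold change −1.10, SE 0.19, edgeR adjusted p = 0.0099). In the opposite direction, 5-phosphatase 12 (c84486_g2_i4) had 2.06, 2.71 and 4.50 TMM CPM in overexpression libraries, against 0.511, 0.894 and 0.718 TMM CPM in mock libraries (log2 fold change 2.12, SE 0.44, edgeR adjusted p = 0.0223). Of the called unigenes, 2 thus fell and 1 rose, each without overlap between groups. The list held 0 calls without overexpression replicate 2 or without mock replicate 1, 1 without overexpression replicate 1, and 9 without overexpression replicate 3.

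The last list covers cell division, the process in which Patellin-1 is known from *Arabidopsis*. Of 67 cell plate and phragmoplast unigenes 25 were tested, with 0 called higher, 1 lower and a median log2 fold change of −0.08. The 1 call is 4.0% of those tested, near the 4.59% of all unigenes tested. The called one matched SNAP30 (c90973_g1_i1), a membrane fusion protein of the SNAP25 type, with 10.6, 20.4 and 11.8 TMM CPM in overexpression libraries, against 87.0, 20.5 and 85.7 TMM CPM in mock libraries (log2 fold change −2.17, SE 0.48, edgeR adjusted p = 0.0296). Mock replicate 2 lay at the level of overexpression replicate 2, so the groups were hardly apart. This call was lost without overexpression replicate 1, and the list held 0 calls without mock replicate 1 or mock replicate 3 and 3 without mock replicate 2.

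**Figure D5:**
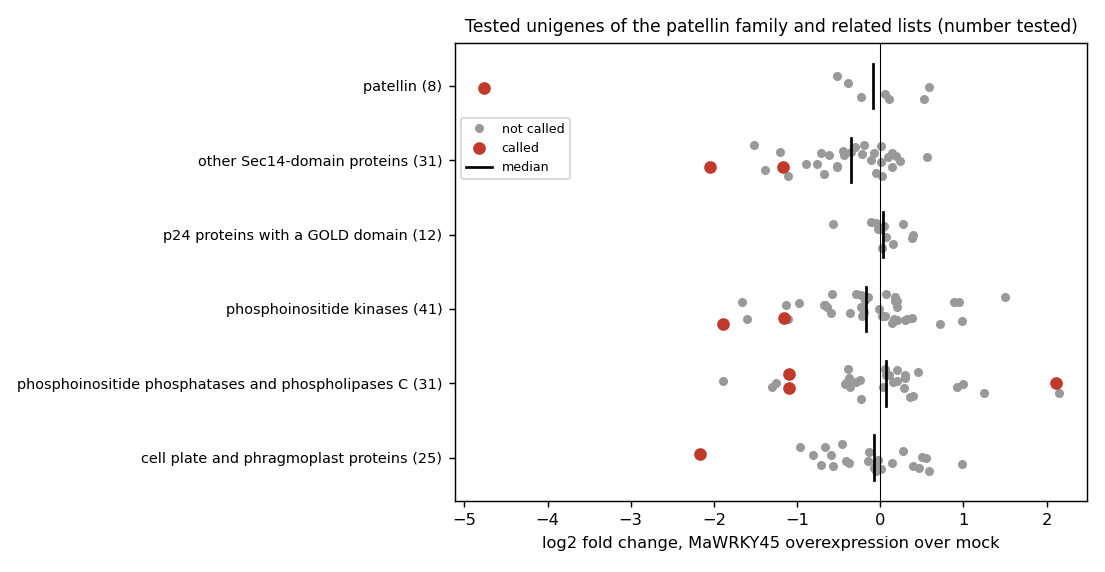
Log2 fold changes, *MaWRKY45* overexpression over mock, of the tested unigenes of the patellin family and of 5 related lists, with the number tested in parentheses, called unigenes in red and a black bar at each median. The Patellin-4 unigene c94450_g1_i2 at −4.77 is the lowest point of all lists shown, and the medians lie between −0.36 and 0.07.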

How the data were processed

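RNA-seq of 6 leaf libraries was deposited. By the study's methods, the authors used Trimmomatic to remove adapters and reads shorter than 36 bases, built the unigenes de novo with Trinity, reduced them with CD-HIT-EST, mapped reads back with Bowtie2 and quantified them with RSEM. The deposited counts are unnormalized read counts per unigene. In the files of single libraries, the deposited expected counts equal those counts, and the FPKM values beside them are the authors' own. The deposited unigene lengths and annotation were used as made, and no genome was used. Columns of per-sample values left unused numbered 0.

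The counts of all unigenes were fitted with edgeR (version 4.0.16, in R 4.3.3) by its quasi-likelihood test after filterByExpr and TMM scaling, with Benjamini-Hochberg adjustment over the 37201 unigenes tested. A unigene was called where the adjusted p was under 0.05 and the change 2-fold or more. The study's DESeq2 (1.42.0), limma-voom (limma 3.58.1), other scalings and filters, a replicate block and leaving out each library were alternatives. The procedures were tested on simulated data. Libraries held 12031310 to 14285138 counts. P-values measure the spread between libraries of pooled plants.

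The members and lists were chosen with earlier results of these data known, and 1 list is not reported here. Named were all patellins, the called list members with the largest changes (up to 3 per direction and list, average level not under 1 TMM CPM) and the 5 unigenes most correlated with the Patellin-4 unigene. With 3 libraries against 3, an exact permutation test could not give a p below 0.10, so none was run.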

Additional observations from a re-analysis of the deposited data

How the results depend on the processing

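The Patellin-4 unigene c94450_g1_i2 stayed lower under all 14 alternatives (log2 fold change −5.54 to −4.32). The patellin calls numbered 1 in the main fit, 1 under each of DESeq2, limma-voom, no filter and the replicate block, and 1 to 2 with single libraries left out. The 1 call is this same unigene, which was chosen by its change, so the count is a description. The second, without mock replicate 2, is c98022_g2_i1. Allowing any fold change at an adjusted p under 0.05, and leaving out yeast unigenes, both chosen after seeing the data, also gave 1. Without a filter on low counts there were 5 calls among other Sec14-domain proteins and 5 among phosphatases and phospholipases C. Over all unigenes this setting called 4201 of 160339, beside 1706 of 37201 in the main fit. DESeq2 gave 5 calls among phosphatases and phospholipases C, and 2562 of 63949 over all unigenes. Scaling by library size alone placed the median log2 fold change of all unigenes at 0.11, beside −0.01 with TMM, and gave 1 kinase and 2 cell plate calls, and limma-voom gave 0 cell plate calls. With single libraries left out, calls ranged from 1 to 3 for Sec14-domain proteins, 0 to 3 for kinases, 0 to 9 for phosphatases and phospholipases C and 0 to 3 for cell plate proteins. Calls over all unigenes moved too under these settings, from 669 to 2756. In the replicate block the kinases held 1 call and cell plate proteins 0. Same-numbered libraries showed no sign of pairing, as their deviations correlated at −0.09, −0.10 and −0.08 and 0 of 3 overexpression libraries were closest to their own number. With so few libraries this check cannot settle whether they were paired.

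Over all unigenes 1706 were called, against 1430 with the replicate block, 1360 with limma-voom, 2562 with DESeq2 and 4201 without a filter. Leaving out overexpression replicates 1, 2 and 3 gave 871, 762 and 2756 calls, and leaving out mock replicates 1, 2 and 3 gave 669, 2594 and 1263. With 2 to 12 counts per library, the overexpression level of c94450_g1_i2 has a wide counting error, and 3 libraries per group limit the other patellins. The cause of these shifts was not tested.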
